A study of Mus musculus with 12 samples.

Results

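The 10 genes described here, of 19937 measured, encode acute-phase and antimicrobial proteins: the serum amyloid A genes Saa1, Saa2 and Saa3, the orosomucoid genes Orm1 and Orm2, and Lcn2, Hp, Steap4, Reg3g and Lbp. They were chosen as a list of gene symbols, and each was read from the probe set that names that gene alone. Each of the 10 had 1 such probe set. The products of 9 of them are secreted. Steap4 encodes a metalloreductase that stays in membranes, and it belongs here through its induction by inflammation.

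Acute-phase proteins are made in large amounts after infection or injury, classically by the liver under IL-6, with IL-1 and TNF as further inducers. IL-6 acts through STAT3, while IL-1, TNF and IL-17 act through NF-kB and C/EBP factors. Several family members are also made outside the liver: Saa3 in macrophages and epithelium, and Lcn2 and Reg3g in airway and gut epithelium, where they limit bacterial growth.

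Whole lungs came from 12 Balb/c mice, 3 in each of 4 groups, and total RNA was hybridised to Affymetrix arrays. Control mice received PBS intranasally. The other groups received house dust mite (HDM) extract standardised for its Der p and Der f allergens, in development units (DU). The eosinophilic model had 3 intraperitoneal injections of 0.75 DU of each allergen on 1.5 mg of aluminium hydroxide, then intranasal challenge at that dose from day 26 to day 28. Mixed and neutrophilic mice had 4 weekly doses into the nose, at 0.75 and 7.5 DU of each allergen respectively. Route, adjuvant and schedule differ between the eosinophilic and the other models, so their parts cannot be told apart. The labels state neither age nor sex.

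Values are deposited log2 intensities, and the number of arrays limits the precision. The array of eosinophilic mouse 7 stood apart: its values spread least (SD 0.996 log2, against 1.51 to 2.04 on the others) and correlated with the median of the other arrays at r = 0.356 (0.864 to 0.980 for the others). The mean of 7 lung identity genes was 6.51 log2 on that array and 10.92 to 11.98 on the others. Results are therefore given on all 12 arrays and on the 11 without mouse 7, where the eosinophilic group has 2 mice. Those 11 still hold eosinophilic mouse 9 (SD 1.52, r = 0.864) and neutrophilic mouse 23 (SD 1.51, r = 0.868). The remaining arrays had an SD of at least 1.77 and an r of at least 0.956. In whole lung, a change in the number of cells of a type and a change in RNA per cell cannot be told apart. The 3 models are compared with the same 3 controls, so those comparisons are not independent of each other.

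Saa3 rose in all 3 models, and Orm1, Steap4 and Reg3g rose in the mixed and neutrophilic models (limma, Benjamini-Hochberg adjusted p under 0.05 over 19937 genes). In eosinophilic mice 1 of the 10 genes was higher than control, against a background of 0.0752% of all genes called higher. In mixed mice it was 4 of 10 (background 0.326%), and in neutrophilic mice also 4 of 10 (background 0.662%). None of the 10 was lower. Without mouse 7 the counts were 4 (background 0.451%), 6 (background 1.41%) and 5 (background 2.24%). The median log2 difference over the 10 genes was 1.37 in eosinophilic, 2.60 in mixed and 1.76 in neutrophilic mice, beside 0.01, 0.00 and 0.05 over all genes. Of 14 neutrophil markers, 0, 1 and 5 rose in eosinophilic, mixed and neutrophilic mice (0, 7 and 7 without mouse 7). The mean of the list was at most 5.63 log2 in controls and at least 6.36 on the treated arrays other than mouse 7. On the array of mouse 7, whose values spread least, it was 5.66. The part of these markers in the differences of the 10 genes was not tested.

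**Figure D1:**
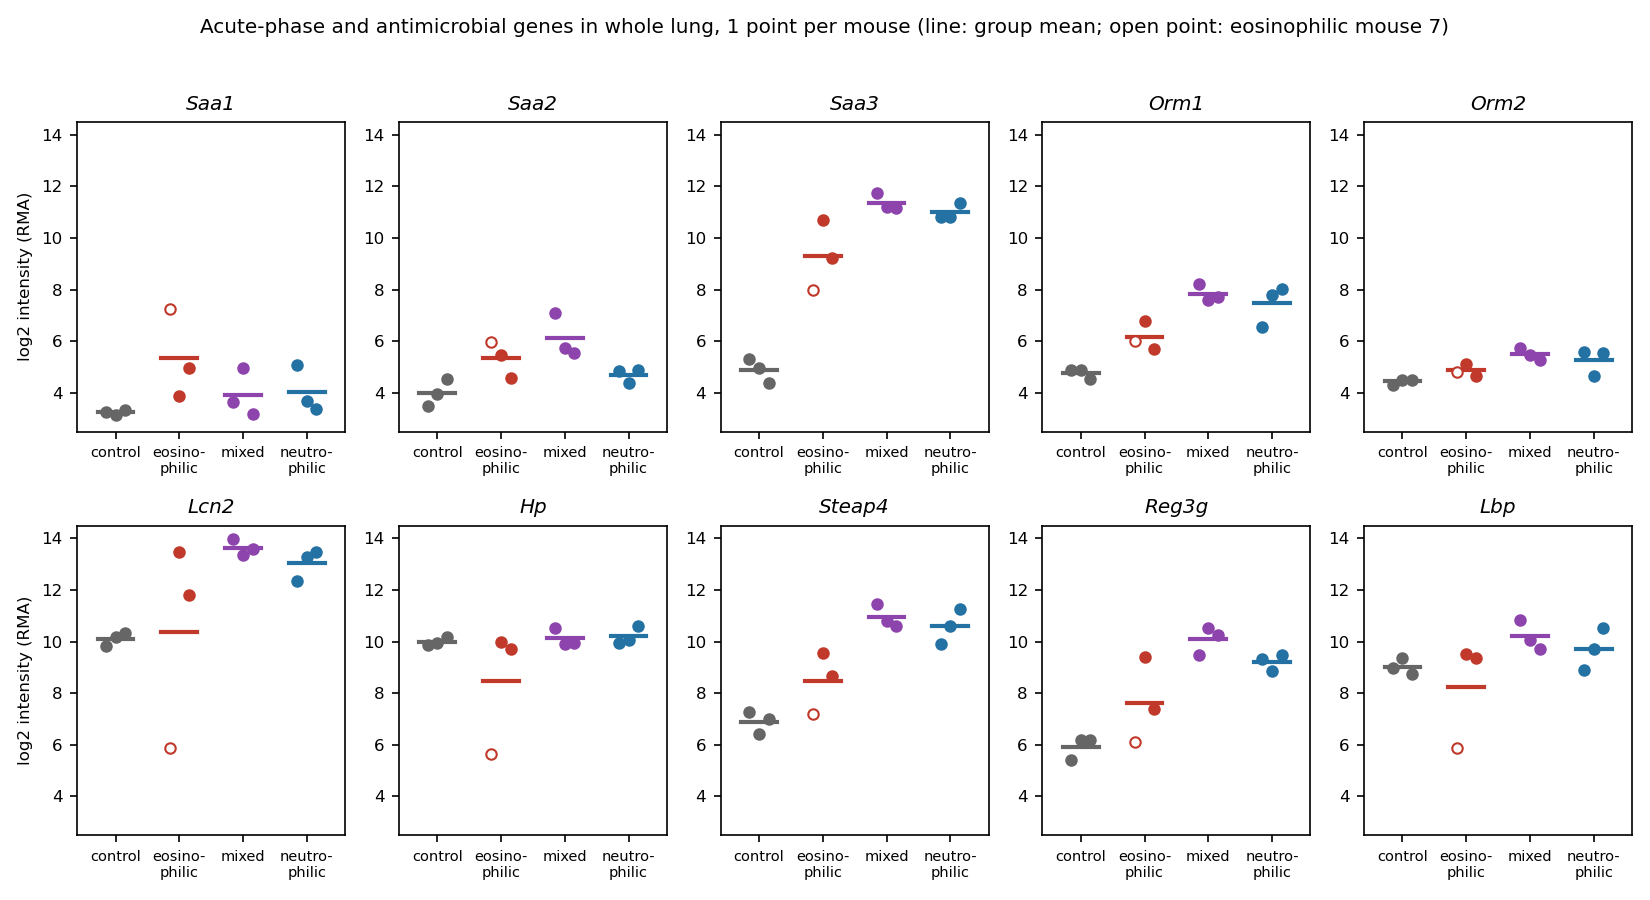
Log2 intensity (RMA) of each of the 10 genes on each array, with 1 panel per gene, 1 point per mouse and a line at the group mean of 3 mice; the open point is eosinophilic mouse 7. Saa3 is between 4.39 and 5.32 in controls and between 11.15 and 11.73 in mixed mice, whereas Hp lies between 9.72 and 10.60 on every array but that of mouse 7 (5.66).

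Saa3 (probe set 10563597), an acute-phase apolipoprotein gene made locally in inflamed tissue, had the widest difference of the 10. In control mice 1, 2 and 3 it read 5.32, 4.97 and 4.39 log2, and in eosinophilic mice 7, 8 and 9 it read 7.97, 10.69 and 9.22. Mixed mice 15, 16 and 17 read 11.73, 11.22 and 11.15, and neutrophilic mice 23, 24 and 25 read 10.83, 10.83 and 11.37. Every treated mouse was above every control, and both intranasal groups were above all 3 eosinophilic mice. Saa3 was 88.7-fold higher in mixed than in control mice (log2 6.47, SE 0.54, limma adjusted p = 0.000221). The neutrophilic difference was log2 6.12 (SE 0.54, adjusted p = 0.000423) and the eosinophilic one was log2 4.40, or 21.1-fold (SE 0.54, adjusted p = 0.0242). Without mouse 7 the eosinophilic difference was log2 5.06 (limma adjusted p = 2.44e-05). On 12 arrays the eosinophilic call was kept in 2 of 6 fits that left out 1 array, those without mouse 7 or 8. In the fit without mouse 8, mice 7 and 9 stood for the group and 8264 of all genes passed. The call was lost without mouse 9 or any 1 control (limma adjusted p up to 0.141). The mixed and neutrophilic calls were kept in 6 of 6 each.

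The 250 bases upstream of the start of Saa3 are shown because it had the widest difference (RefSeq, GRCm38.p6, chr7:46715677-46715926, minus strand). Capitals mark a match to the C/EBP motif TTGCNNAA, which lies on the strand opposite to the gene.
Saa3: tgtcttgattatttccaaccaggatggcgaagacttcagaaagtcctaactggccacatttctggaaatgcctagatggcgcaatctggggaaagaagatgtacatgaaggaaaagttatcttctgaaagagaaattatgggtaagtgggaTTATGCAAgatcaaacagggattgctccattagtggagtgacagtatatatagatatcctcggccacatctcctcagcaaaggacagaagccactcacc
The match began 99 bases upstream of the start. Windows of this kind were found for 7 of the 10 genes, and not for Orm1, Hp and Lbp. TTGCNNAA, searched on both strands, was found in 6 of the 7, and in 9.6% of 32851 mouse promoter windows of the same length. The 6 include Saa1 and Saa2, whose windows are near copies of each other (94.8% identical positions). The NF-kB (kB) motif was found in 4 of 7 (9.5% of all windows), and the STAT motif TTCNNNGAA in 1 of 7 (7.0% of all windows). These are letter matches, and no binding was measured.

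Saa1 (probe set 10563611) and Saa2 (probe set 10553274), the serum amyloid genes made mainly by the liver, had smaller differences. Saa1 read 3.27, 3.15 and 3.34 log2 in controls, 7.26, 3.87 and 4.96 in eosinophilic, 3.64, 4.96 and 3.18 in mixed, and 5.07, 3.67 and 3.36 in neutrophilic mice. Its highest value came from mouse 7, and it reached 5 log2 on 2 of 12 arrays. No Saa1 difference passed the test: the eosinophilic one was log2 2.11 (SE 0.74, limma adjusted p = 0.126) and 1.16 without mouse 7 (adjusted p = 0.307).

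Saa2 read 3.49, 3.95 and 4.53 log2 in controls and 5.97, 5.47 and 4.59 in eosinophilic mice. Mixed mice read 7.09, 5.75 and 5.54, and neutrophilic mice read 4.85, 4.39 and 4.87. All mixed mice were above all controls and above all neutrophilic mice, while the neutrophilic and control ranges overlapped. The mixed difference from control was log2 2.14 (SE 0.46, limma adjusted p = 0.0689). It passed the threshold on 11 arrays (adjusted p = 0.0114), and then in 4 of 6 fits that left out a further array. Neutrophilic minus mixed was -1.42 log2 (95% interval -2.42 to -0.42), with a limma adjusted p of 0.9999 on 12 arrays and 0.454 on 11. Although the mixed and neutrophilic mice did not overlap, that difference did not pass the test.

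Saa1 and Saa2 are neighbouring genes, and each symbol is listed by RefSeq as a synonym of the other. Their upstream windows show how alike the copies are, with 94.8% identical positions in an alignment with 11 mismatches and 2 gaps. All other pairs among the 7 windows had 47.2% to 54.3%. The windows are from RefSeq, GRCm38.p6, chr7:46742981-46743230 (minus strand) for Saa1 and chr7:46751583-46751832 (plus strand) for Saa2. Capitals mark TTGCNNAA in both and the kB match, which was found in Saa1 but not in Saa2.
Saa1: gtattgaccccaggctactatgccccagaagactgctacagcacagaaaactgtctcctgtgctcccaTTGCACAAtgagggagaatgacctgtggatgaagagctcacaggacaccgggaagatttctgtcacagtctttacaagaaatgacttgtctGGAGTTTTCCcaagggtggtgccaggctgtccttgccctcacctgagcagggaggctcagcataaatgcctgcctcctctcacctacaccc
Saa2: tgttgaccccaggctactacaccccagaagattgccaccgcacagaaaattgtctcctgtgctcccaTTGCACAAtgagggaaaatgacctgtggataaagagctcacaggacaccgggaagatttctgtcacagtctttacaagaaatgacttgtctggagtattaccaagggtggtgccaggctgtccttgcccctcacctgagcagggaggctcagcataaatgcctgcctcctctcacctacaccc
Since RNA from one copy may bind probes for the other, the split of signal between Saa1 and Saa2 is uncertain. Saa4, a further gene of the cluster, did not pass the test in any model (log2 1.11, 0.66 and 0.47 in eosinophilic, mixed and neutrophilic mice).

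Orm1 (probe set 10505438), which encodes the plasma lipocalin alpha-1-acid glycoprotein, rose in both intranasal models. Controls read 4.89, 4.87 and 4.55 log2, and eosinophilic mice read 6.01, 6.79 and 5.70. Mixed mice read 8.21, 7.60 and 7.70, and neutrophilic mice read 6.57, 7.80 and 8.04. Every treated mouse was above every control, and neutrophilic mouse 23 lay within the eosinophilic range. Orm1 was 8.37-fold higher in mixed mice (log2 3.07, SE 0.40, limma adjusted p = 0.00837) and log2 2.70 higher in neutrophilic mice (SE 0.40, adjusted p = 0.00907). The eosinophilic difference of log2 1.40 did not pass (adjusted p = 0.101, and 0.113 without mouse 7). On 12 arrays the mixed call was lost without control mouse 1 or 2 or mixed mouse 15 (adjusted p up to 0.0696), and the neutrophilic call without control mouse 1 or 2 or neutrophilic mouse 25 (adjusted p up to 0.0616). On 11 arrays both were kept in 6 of 6 fits.

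Orm2 (probe set 10505451), its paralog, did not pass the test in any comparison. It read 4.32, 4.50 and 4.50 log2 in controls, 4.82, 5.12 and 4.66 in eosinophilic, 5.74, 5.47 and 5.29 in mixed, and 5.60, 4.67 and 5.53 in neutrophilic mice. All treated mice were above all controls by small amounts. The mixed difference was log2 1.06 (SE 0.30, limma adjusted p = 0.182, and 0.0638 without mouse 7). Orm3, which lies between Orm1 and Orm2 on the chromosome, differed from control by log2 0.65, 0.19 and 0.05 in the 3 models and did not pass. The 3 Orm genes are near copies, so the division of signal among their probe sets is uncertain.

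Lcn2 (probe set 10481627) encodes lipocalin 2, which binds bacterial siderophores and so withholds iron. Controls read 9.81, 10.17 and 10.32 log2, and eosinophilic mice read 5.86, 13.49 and 11.79. Mixed mice read 13.97, 13.36 and 13.59, and neutrophilic mice read 12.33, 13.29 and 13.47. Mouse 7 was far below all other arrays, and each of the other 8 treated mice was above every control. On 12 arrays no Lcn2 difference passed: log2 0.28 in eosinophilic (limma adjusted p = 0.887), 3.53 in mixed (SE 1.35, adjusted p = 0.430) and 2.93 in neutrophilic mice (adjusted p = 0.340).

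Without mouse 7, Lcn2 rose in all 3 models. The differences were log2 2.54 in eosinophilic (limma adjusted p = 0.0197), 3.53 in mixed (adjusted p = 0.000361) and 2.93 in neutrophilic mice (adjusted p = 0.000987). The fold for mixed mice, 11.6, was the same with and without mouse 7, because that array enters it only through the pooled spread. Leaving out a further array kept the mixed and neutrophilic calls in 6 of 6 fits each. The eosinophilic call was kept without control mouse 3 and lost without control mouse 1 or 2 (limma adjusted p up to 0.107). With mouse 8 or mouse 9 alone standing for the eosinophilic group, the difference was log2 3.39 or 1.69.

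The Lcn2 window (RefSeq, GRCm38.p6, chr2:32387740-32387989, minus strand) is shown because it holds matches to both TTGCNNAA and the kB motif, in capitals in that order.
Lcn2: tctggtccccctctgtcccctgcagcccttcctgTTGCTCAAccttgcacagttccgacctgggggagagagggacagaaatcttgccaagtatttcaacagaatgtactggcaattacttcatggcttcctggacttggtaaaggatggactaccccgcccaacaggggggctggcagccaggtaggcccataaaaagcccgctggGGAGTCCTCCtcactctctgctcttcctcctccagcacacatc
The kB match began 43 bases upstream of the start, and the C/EBP match 216 bases upstream. The cell surface receptor gene for lipocalin 2, Slc22a17, did not pass in any model (log2 -0.21, -0.06 and -0.06).

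Steap4 (probe set 10519497), the metalloreductase of iron and copper, rose strongly in the intranasal models. Controls read 7.27, 6.42 and 6.98 log2, and eosinophilic mice read 7.18, 9.57 and 8.68. Mixed mice read 11.47, 10.80 and 10.61, and neutrophilic mice read 9.90, 10.62 and 11.25. Mouse 7 lay within the control range, and all 6 intranasal mice were above all other mice. Steap4 was 16.8-fold higher in mixed (log2 4.07, SE 0.54, limma adjusted p = 0.00837) and log2 3.70 higher in neutrophilic mice (SE 0.54, adjusted p = 0.00813). The eosinophilic difference was log2 1.59 on 12 arrays (adjusted p = 0.123) and 2.23 on 11, where it passed (adjusted p = 0.0247) but was lost when any 1 control was also left out (up to 0.133). On 12 arrays the mixed and neutrophilic calls were lost without the same arrays as for Orm1 (adjusted p up to 0.0718 and 0.0669), and on 11 they were kept in 6 of 6 fits. Its paralogs Steap1, Steap2 and Steap3 did not pass in any model.

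The Steap4 window (RefSeq, GRCm38.p6, chr5:7960222-7960471, plus strand) was the only one of the 7 with all 3 motifs. Capitals mark, from left to right, 2 kB matches, TTCNNNGAA and TTGCNNAA.
Steap4: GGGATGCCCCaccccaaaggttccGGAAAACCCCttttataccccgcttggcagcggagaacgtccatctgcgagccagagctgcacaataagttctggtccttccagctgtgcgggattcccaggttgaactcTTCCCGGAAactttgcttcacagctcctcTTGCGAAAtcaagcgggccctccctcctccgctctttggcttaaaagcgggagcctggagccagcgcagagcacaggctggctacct
The STAT match began 116 bases upstream of the start and the C/EBP match 87 bases upstream.

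Reg3g (probe set 10545569) encodes a secreted C-type lectin that kills Gram-positive bacteria at epithelial surfaces. Controls read 5.39, 6.17 and 6.17 log2, and eosinophilic mice read 6.09, 9.40 and 7.37. Mixed mice read 9.46, 10.54 and 10.26, and neutrophilic mice read 9.31, 8.86 and 9.49. All 6 intranasal mice were above the controls, and eosinophilic mouse 8 lay within the neutrophilic range. Reg3g was 18.1-fold higher in mixed (log2 4.18, SE 0.64, limma adjusted p = 0.0160) and log2 3.31 higher in neutrophilic mice (SE 0.64, adjusted p = 0.0225). The eosinophilic difference was log2 1.71 (adjusted p = 0.135), and 2.47 without mouse 7 (adjusted p = 0.0318), a call lost when any 1 control was also left out (up to 0.167). On 12 arrays both calls were lost whichever single array of the groups compared was left out (adjusted p up to 0.107 and 0.138), and on 11 arrays they were kept in 6 of 6 fits each.

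The Reg3g window (RefSeq, GRCm38.p6, chr6:78468875-78469124, minus strand) holds a kB match, in capitals, and was the only one of the 7 with no match to TTGCNNAA.
Reg3g: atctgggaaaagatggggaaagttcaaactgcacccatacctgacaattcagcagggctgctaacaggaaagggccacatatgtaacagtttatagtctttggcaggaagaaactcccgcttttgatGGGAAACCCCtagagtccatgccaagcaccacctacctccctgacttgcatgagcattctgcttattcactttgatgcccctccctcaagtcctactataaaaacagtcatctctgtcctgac
The match began 123 bases upstream of the start. Of the related lectin genes, Reg3a, Reg3b, Reg3d and Reg1 did not pass in any model. Reg3b differed from control by log2 0.33, -0.01 and 0.28 in eosinophilic, mixed and neutrophilic mice and read at most 5.04 log2.

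Hp (probe set 10581605), the haptoglobin gene whose product binds free haemoglobin, did not pass in any comparison. It read 9.85, 9.96 and 10.16 log2 in controls, 5.66, 9.98 and 9.72 in eosinophilic, 10.54, 9.89 and 9.95 in mixed, and 9.95, 10.05 and 10.60 in neutrophilic mice. Apart from mouse 7, the groups overlapped. Without it, the differences from control were -0.14 log2 in eosinophilic (95% interval -0.78 to 0.50), 0.14 in mixed (-0.44 to 0.71) and 0.21 in neutrophilic mice (-0.36 to 0.79). These intervals leave out a rise as large as the Orm1 or Lcn2 differences in the intranasal models. By contrast, Cd163, the macrophage receptor for haptoglobin-haemoglobin complexes, was highest in eosinophilic mice, at 5.48, 9.21 and 8.70 log2 against at most 4.51 in controls. It did not pass on 12 arrays (limma adjusted p = 0.0529). Without mouse 7 Cd163 rose by log2 4.71 in eosinophilic (adjusted p = 5.71e-06), 1.65 in mixed (adjusted p = 0.00674) and 1.03 in neutrophilic mice (adjusted p = 0.0362). It was then lower in mixed than in eosinophilic mice by limma (log2 -3.06, adjusted p = 0.00370), and likewise in neutrophilic mice (log2 -3.68, adjusted p = 0.000267). Hmox1, which breaks down haem, rose on 11 arrays by log2 2.62, 1.62 and 1.62 in eosinophilic, mixed and neutrophilic mice.

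Lbp (probe set 10478048) encodes the protein that hands lipopolysaccharide to CD14. It read 8.98, 9.37 and 8.74 log2 in controls, 5.87, 9.51 and 9.37 in eosinophilic, 10.85, 10.06 and 9.70 in mixed, and 8.91, 9.73 and 10.51 in neutrophilic mice. All mixed mice were above all controls, and the neutrophilic range overlapped them. No Lbp difference passed: the mixed one was log2 1.17 (limma adjusted p = 0.991, and 0.150 without mouse 7). The genes downstream of Lbp differed among themselves. Cd14 rose in mixed (log2 4.37, limma adjusted p = 0.0385) and neutrophilic mice (log2 4.24, adjusted p = 0.0215), from 5.51 to 6.20 log2 in controls to 8.98 to 11.12 in those groups. Tlr4 and Ly96, the signalling receptor for lipopolysaccharide and its partner, did not pass in any model.

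**Figure D2:**
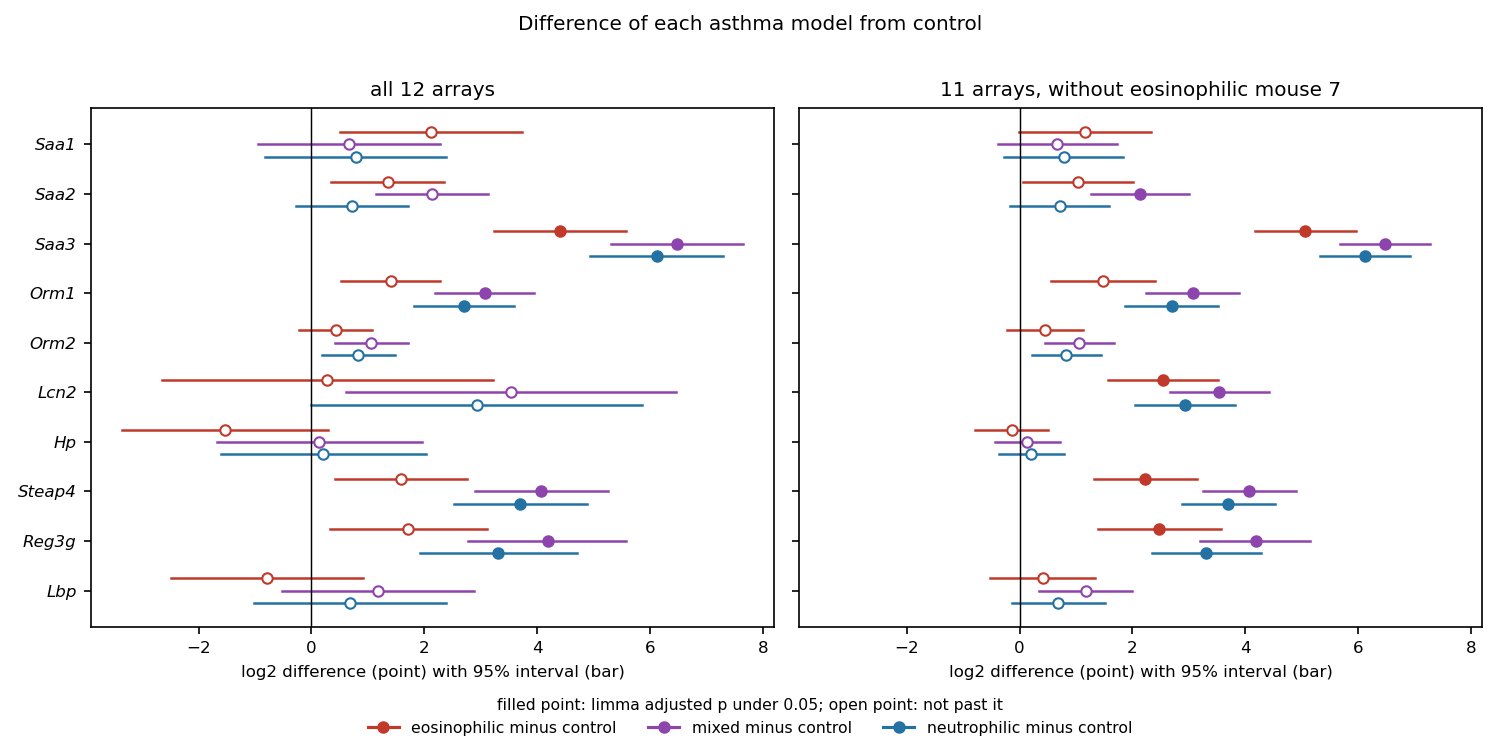
Log2 difference of each model from control for the 10 genes (point) with its 95% interval (bar) from limma, on all 12 arrays (left) and without eosinophilic mouse 7 (right); filled points have an adjusted p under 0.05. The number of filled points is 1, 4 and 4 for eosinophilic, mixed and neutrophilic mice on the left and 4, 6 and 5 on the right, and the Lcn2 interval for mixed mice narrows from 0.61 to 6.46 down to 2.66 to 4.41.

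No member differed between models past the threshold. The count was 0 of 10 for mixed minus eosinophilic (background 0.00502% of genes higher, and 0.0301% without mouse 7). It was 0 of 10 for neutrophilic minus eosinophilic (background 0.11%, and 0.14% without mouse 7) and for neutrophilic minus mixed (background 0%, also without mouse 7). By limma, neutrophilic minus mixed called 0 genes in all, with 618 genes at an unadjusted p under 0.05 (1459 without mouse 7). The median difference over the 10 genes was log2 1.81, 1.53 and -0.37 in these 3 comparisons, beside 0.00, -0.02 and 0.02 over all genes. Without mouse 7 the first and second were 1.05 and 0.38.

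Steap4 came nearest to a call in mixed minus eosinophilic mice, with log2 2.48 (95% interval 1.31 to 3.66, limma adjusted p = 0.231), and 1.84 on 11 arrays (0.92 to 2.75, adjusted p = 0.285). Saa3 differed by log2 2.07 (0.90 to 3.24, limma adjusted p = 0.296) and 1.41 without mouse 7. Reg3g differed by log2 2.47 and 1.70, and Orm1 by 1.67 and 1.59. With mice 7 and 9 both left out, mouse 8 alone stood for the eosinophilic group. The differences were then log2 1.39 for Steap4, 0.67 for Saa3, 0.69 for Reg3g and 1.04 for Orm1. With all arrays kept, every mixed mouse was above every eosinophilic mouse for each of these 4 genes. The same held for Orm2 and Lbp, while the groups overlapped for Saa1, Saa2, Lcn2 and Hp. How many of all genes separate in this way was not counted, so no weight is placed on it. Between the intranasal models, which differ in HDM dose, the intervals on 11 arrays were -1.15 to 0.44 log2 for Saa3, -1.19 to 0.46 for Orm1, -1.19 to 0.45 for Steap4 and -1.84 to 0.11 for Reg3g. None of these 4 genes was higher in neutrophilic than in mixed mice past the test, and the intervals show what 3 mice a group resolve.

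**Figure D3:**
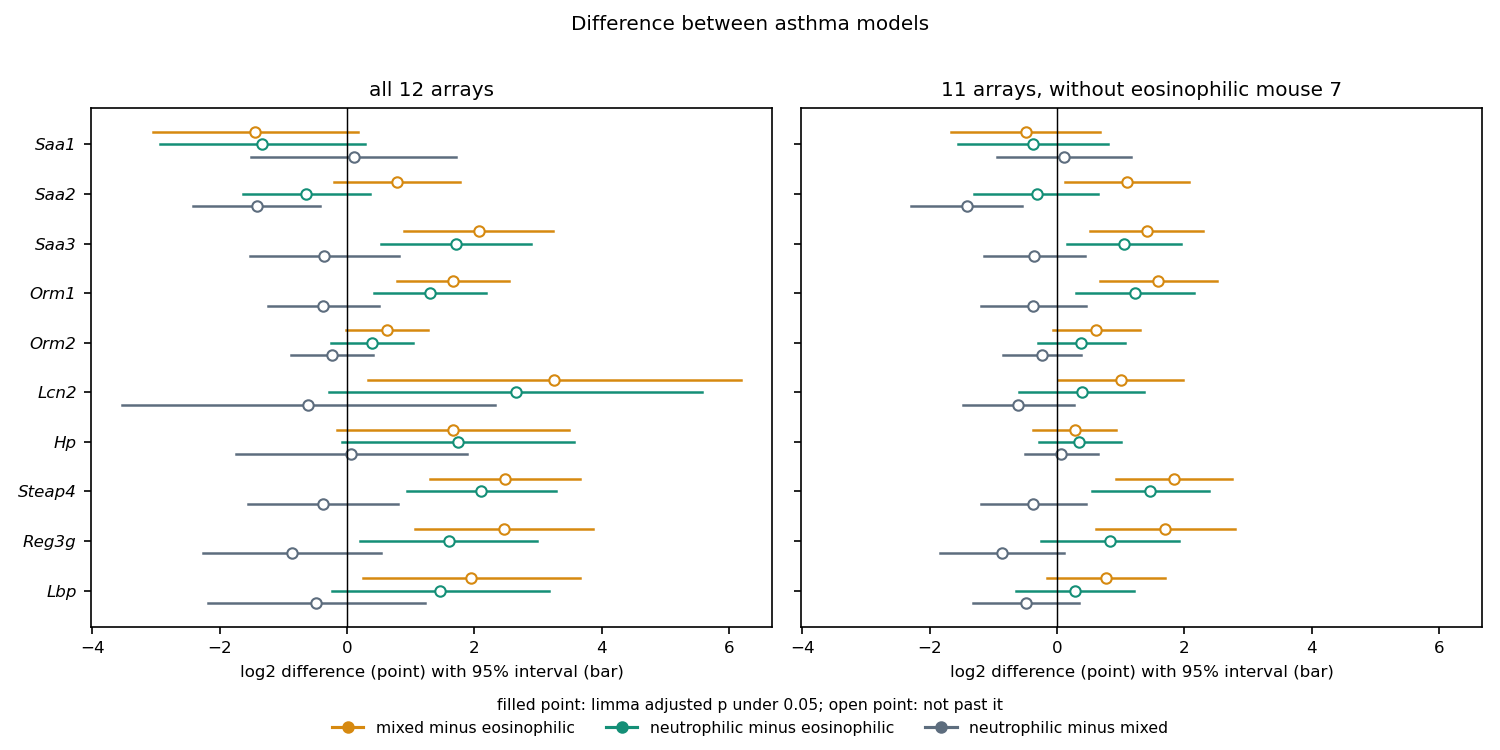
Log2 difference between models for the 10 genes (point) with its 95% interval (bar) from limma, on all 12 arrays (left) and on 11 arrays (right). All points are open, so none passed an adjusted p of 0.05; the Steap4 interval for mixed minus eosinophilic, 0.92 to 2.75 on 11 arrays, lies above 0, and that of Saa2 for neutrophilic minus mixed, -2.29 to -0.55, lies below it.

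The group means of Saa3, Orm1, Orm2, Lcn2, Steap4 and Reg3g stood in the order control, eosinophilic, neutrophilic, mixed. This order was found in 6 of 10 members and in 2.21% of all genes, and on 11 arrays in 7 of 10 and 3.50%, with Lbp added. Neutrophilic and mixed, neighbours in that order, did not differ beyond their spread for any of these genes. Saa1 had its highest mean in eosinophilic mice and Hp in neutrophilic mice. The counts describe these 4 group means, which rest on 3 mice each.

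Genes most like the members were ranked by the mean absolute log2 difference, over 12 arrays, between their values after subtracting each gene's control mean. For Saa3 they were Slc26a4 (0.59), Clca1 (0.86) and Timp1 (1.02), with the same 3 on 11 arrays. For Steap4 they were Tnfrsf9 (0.31), Mt1 (0.35) and Mcoln2 (0.42), and for Reg3g they were Mt1 (0.51), Cxcl3 (0.55) and Tnfrsf9 (0.56). Orm1 was closest to Gbp5 (0.27), Adamts4 (0.29) and Slc39a14 (0.32). On 11 arrays Nfil3 (0.41) replaced Mcoln2 for Steap4, and Rnf19b (0.22) replaced Adamts4 for Orm1, while Reg3g kept the same genes. Mt1, a metallothionein gene, and Tnfrsf9 thus appeared beside both Steap4 and Reg3g.

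Of 19 other acute-phase genes measured, 0 rose in eosinophilic, 2 in mixed and 5 in neutrophilic mice, and without mouse 7 the counts were 4, 8 and 9. None fell. The median differences on 12 arrays were log2 0.65, 1.25 and 0.65. Mt1 rose by log2 4.15 in mixed (limma adjusted p = 0.00837) and 4.20 in neutrophilic mice (adjusted p = 0.00622). Hamp, which encodes the iron hormone hepcidin, rose by log2 4.14 in neutrophilic mice (adjusted p = 0.0162), from 3.87, 3.57 and 5.24 in controls to 6.50, 8.71 and 9.87. Hpx, the haem binder haemopexin, rose there by log2 1.57 (adjusted p = 0.0424). Serpina3n, a protease inhibitor, read 7.71, 7.48 and 7.06 log2 in controls and 11.68 to 12.92 in intranasal mice, and passed without mouse 7 in all 3 models (log2 4.49, 4.97 and 4.51). Crp, Apcs and A2m did not pass in any model on either set of arrays.

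Of 24 other antimicrobial genes, 0, 0 and 3 rose in eosinophilic, mixed and neutrophilic mice, and 1, 6 and 7 without mouse 7. The 3 were S100a9 (log2 3.34, limma adjusted p = 0.00936), S100a8 (log2 2.66, adjusted p = 0.0209) and Pglyrp1 (log2 2.22, adjusted p = 0.0491), all genes of neutrophils. On 11 arrays Bpifb1, an airway secretory protein gene, rose in all 3 models (log2 2.23, 3.04 and 2.55), and the lactoferrin gene Ltf rose in the mixed and neutrophilic models (log2 1.94 and 1.72). Camp, the cathelicidin gene, did not pass in any model.

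Among 30 inducers and signal transducers measured, 0, 3 and 6 rose in eosinophilic, mixed and neutrophilic mice, and 1, 10 and 14 without mouse 7. None fell. Il6 read 3.43, 3.51 and 3.86 log2 in controls, 5.32, 4.80 and 4.78 in eosinophilic, 5.89, 5.77 and 7.11 in mixed, and 4.58, 6.63 and 5.77 in neutrophilic mice. All treated mice were above all controls. Il6 rose by log2 2.66 in mixed (SE 0.48, limma adjusted p = 0.0347) and 2.06 in neutrophilic mice (adjusted p = 0.0498).

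Osm, an IL-6 family cytokine gene, read 4.88, 4.80 and 5.24 log2 in controls and 7.84, 8.14 and 7.87 in neutrophilic mice. It rose by log2 2.14 in mixed (limma adjusted p = 0.0140) and 2.98 in neutrophilic mice (adjusted p = 0.00118). Osm was higher in neutrophilic than in eosinophilic mice (log2 2.25, SE 0.32, limma adjusted p = 0.0162, and 0.0149 without mouse 7), and was the gene of this list to pass between models. Socs3, a feedback inhibitor and target of STAT3, rose by log2 2.93 (adjusted p = 0.0464) and 3.61 (adjusted p = 0.0105) in the mixed and neutrophilic models. The shared receptor chain gene Il6st and Stat3 itself did not pass in any model.

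Of the IL-17 and NF-kB genes, Il17f (log2 1.30, limma adjusted p = 0.0354), Relb (log2 1.71, adjusted p = 0.0366) and Il1b (log2 3.28, adjusted p = 0.0498) rose in neutrophilic mice. Il17a did not pass (log2 0.68, 0.09 and 0.71). Without mouse 7 Cebpd rose in mixed and neutrophilic mice (log2 1.80 and 1.79), and Nfkbiz (log2 1.38) and Tnf (log2 1.94) rose in neutrophilic mice. Cebpb did not pass in any model.

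Among 17 receptors and partners measured, 0, 1 and 1 rose, the 1 being Cd14, which is also counted with the acute-phase genes. On 11 arrays 3 rose in each model, namely Cd14, Cd163 and Hmox1. Cd36 (log2 -1.71, limma adjusted p = 0.00165) and Tfrc, the transferrin receptor gene (log2 -1.27, adjusted p = 0.0426), fell in neutrophilic mice on those arrays.

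**Figure D4:**
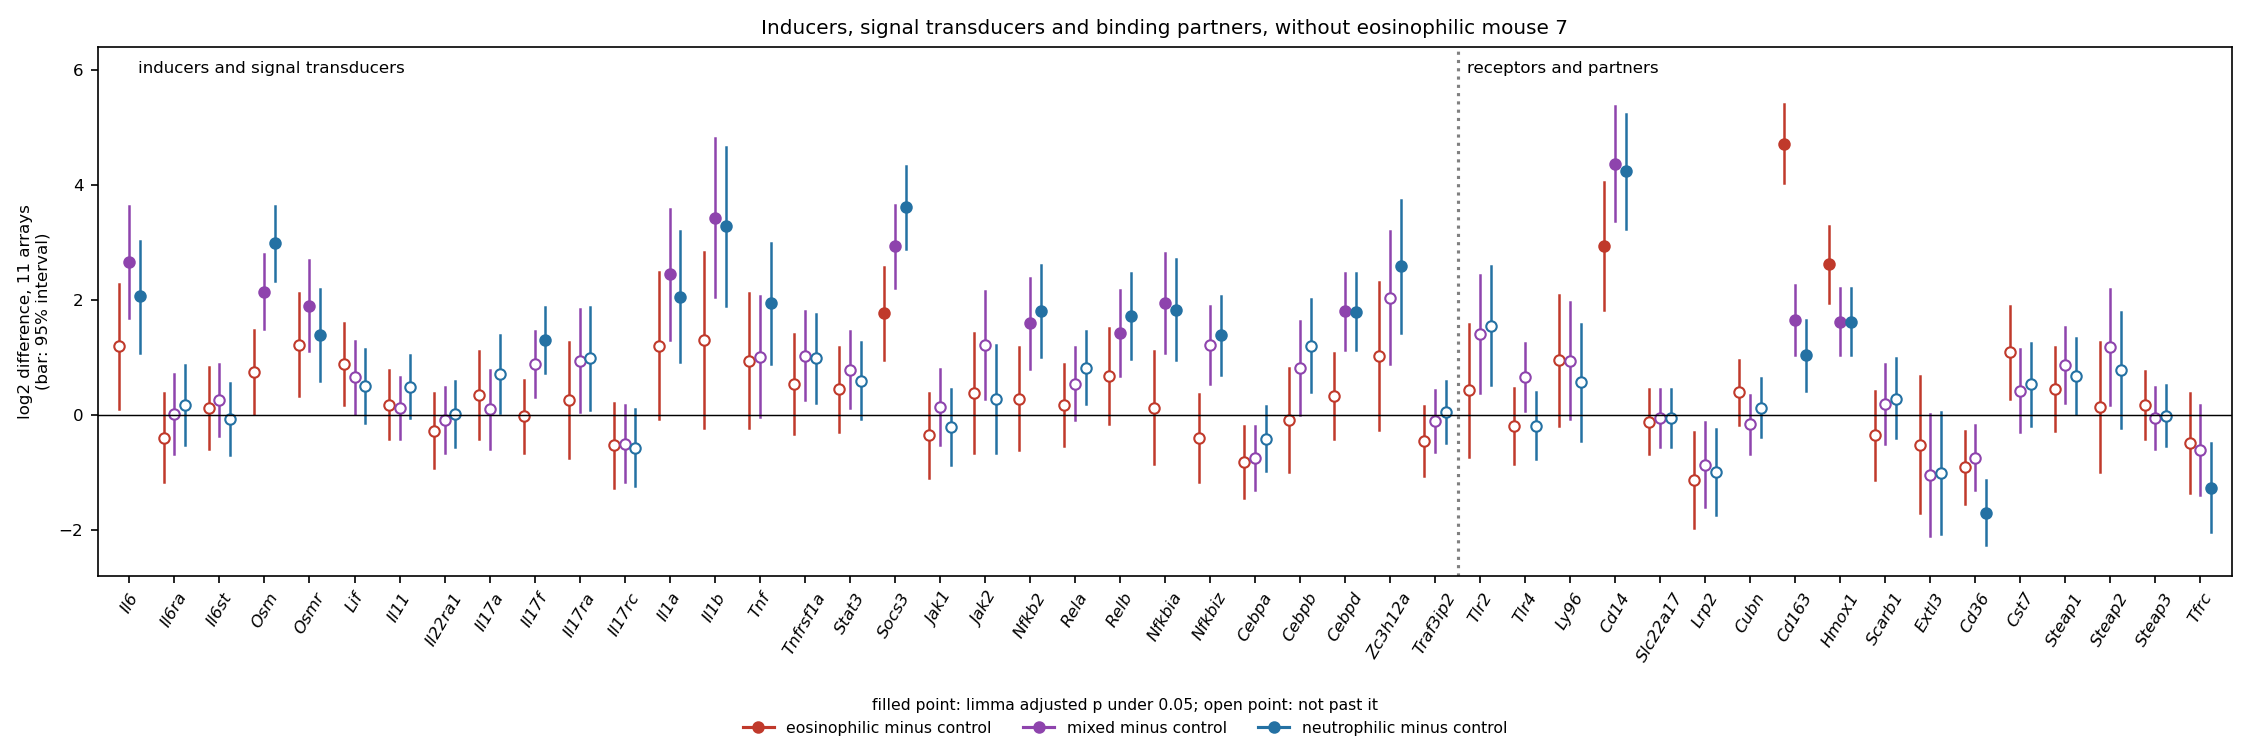
Log2 difference from control (point) with its 95% interval (bar) for 30 inducers and signal transducers and 17 receptors and partners, from limma on the 11 arrays without eosinophilic mouse 7; filled points have an adjusted p under 0.05. Filled points number 1, 10 and 14 among the inducers for eosinophilic, mixed and neutrophilic mice, and Cd163 is at 4.71 in eosinophilic mice, 1.65 in mixed and 1.03 in neutrophilic mice.

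Cell markers were set beside these values. Of 14 neutrophil markers measured, 0 rose in eosinophilic, 1 in mixed and 5 in neutrophilic mice, and 0, 7 and 7 without mouse 7. The list's mean on each array was 5.07 to 5.63 log2 in controls, 5.66 to 6.51 in eosinophilic, 6.74 to 7.25 in mixed and 6.41 to 7.52 in neutrophilic mice. Il1r2, Ly6g, Mmp8, S100a8 and S100a9 were the 5 that rose in neutrophilic mice. The primary granule genes Mpo, Elane, Prtn3, Ctsg and Fcnb, made in neutrophil precursors, read at most 5.77 log2 on any array. Lcn2 is itself stored in neutrophil granules, and whether its signal came from neutrophils or epithelium was not tested.

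Of 12 airway secretory markers 0, 1 and 1 rose and 1, 0 and 0 fell in the 3 models. Muc5ac rose in mixed and neutrophilic mice, and Scgb3a2 fell in eosinophilic mice. Without mouse 7, 3, 3 and 3 rose and 1, 0 and 1 fell, and the part of these markers in the differences of the 10 genes was not tested. The mean of this list was 8.86 to 9.29 log2 in controls, 9.46 to 10.08 in mixed and 9.26 to 9.89 in neutrophilic mice, and 8.77 to 9.25 in eosinophilic mice other than mouse 7 (5.65). Of 8 alveolar type 2 markers and of 10 macrophage markers, 0 passed in any model on 12 arrays, whereas on 11 arrays 2, 1 and 3 macrophage markers rose. Of 8 endothelial markers 0 passed on 12 arrays, and 1, 2 and 3 fell without mouse 7. Of 8 fibroblast markers 1, 0 and 0 fell on 12 arrays and 1, 0 and 2 without mouse 7, and of 7 lung identity genes 0 passed on 12 arrays and 3 fell in neutrophilic mice without mouse 7. Of 8 adipose markers 0 passed on either set of arrays, and their mean was 5.19, 6.22 and 6.59 log2 in mixed mice 15, 16 and 17, against 5.08 to 5.79 on the other arrays.

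Liver genes were checked because the liver is the classical source of these proteins. Of 14 liver markers 0 passed in any comparison on either set of arrays, and their mean lay between 4.05 and 5.20 log2. Single genes of the list read higher, such as Cyp2e1, at 7.06, 6.07 and 6.42 log2 in controls and 5.44, 6.95 and 8.42 in mixed mice. Alb, the albumin gene, read 4.11 to 5.71 log2 over the 12 arrays.

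**Figure D5:**
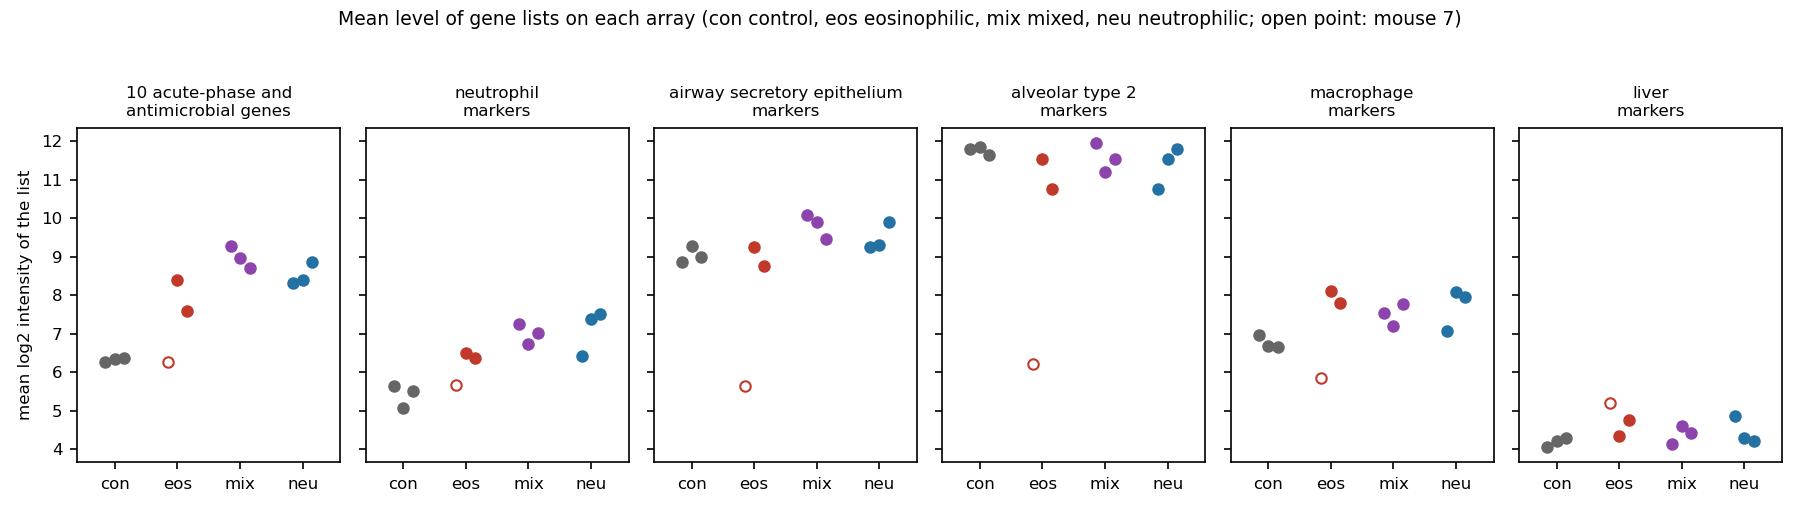
Mean log2 intensity of 6 gene lists on each array, with 1 point per mouse and the open point for eosinophilic mouse 7. The mean of the 10 members is 6.26 to 6.37 in controls, 8.70 to 9.27 in mixed and 8.33 to 8.85 in neutrophilic mice, while liver markers stay between 4.05 and 5.20 on all arrays.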

How the data were processed

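The authors' deposited values are log2 intensities per probe set of Affymetrix arrays, made with Affymetrix Expression Console and RMA, per the submitters' processing notes. Labelling started from 300 ng of RNA, per the labels' protocols. Background, scan batches and scanner files were not analysed here. Of 34760 probe sets, 21640 carry 1 gene symbol in the platform annotation, 1321 carry several and 11799 are unlisted. Where several probe sets name 1 gene, the brightest on average was kept, which gave 19937 genes. Group means over all 12 arrays were fitted with limma 3.58.1 in R 4.3.3 (lmFit, eBayes), and p-values of 6 comparisons were each adjusted by Benjamini-Hochberg over 19937 genes, with a threshold of 0.05. A run on simulated data checked only that the fit returned the shifts put in. Its noise was independent and alike on all arrays, so it does not measure false calls in these data. Intervals cover 95%. Labels do not say whether mice were handled in batches, and p-values measure only the spread between these samples.

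The 10 genes, the lists and the rule for named genes were chosen with earlier results of these data known. Named were all members, listed genes past the threshold up to the 4 with the smallest p in a comparison, some inducers and partners whatever their p, and the 3 genes most like each member that was called. Crp, Apcs, A2m, Reg3a, Reg3d, Reg1, Cyp2e1, the other Steap genes, and the fifth and later genes of a list were named after their values were seen. Alternatives were a filter on dim genes (5 log2 on at least 3 arrays, which 9 of 10 members passed), centring, quantile normalisation, the mean of probe sets, fits on only the groups compared, and fits without some arrays. Promoter windows are RefSeq's, build GRCm38.p6, matched by symbol and trimmed to the 250 bases before the start. Identity is the share of identical columns in a global alignment.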

Additional observations from a re-analysis of the deposited data

How the results depend on the processing

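No paired analysis was possible because the groups compared share no replicate numbers. The alternative that left out eosinophilic mouse 7 together with each other array was chosen after seeing the data. Numbers of the 10 genes past the threshold in eosinophilic minus control were 1 on 12 arrays, 2 after quantile normalisation, 5 without mice 7, 9 and 23 (the least spread arrays) and 0 when only the groups compared were fitted. In mixed minus control the count of 4 became 8 in each of these last 2 fits. Fits without 1 array, alone or together with mouse 7, are counted here where each group kept at least 2 mice. They gave 0 to 4 in eosinophilic, 1 to 6 in mixed and 1 to 6 in neutrophilic mice against control. Over all genes the same fits gave 1 to 8264, 6 to 596 and 17 to 1889, and the 8264 came without eosinophilic mouse 8. For the 10 genes they gave 0 to 8 in mixed minus eosinophilic and 0 to 5 in neutrophilic minus eosinophilic. On 12 arrays the mixed and neutrophilic counts fell to 1 without control mouse 1 or 2, mixed mouse 15 or neutrophilic mouse 25. Over all genes the mixed count of 94 became 6 without control mouse 1 or 2 and 7 without mixed mouse 15. The neutrophilic count of 421 became 17 and 21 without control mouse 1 or 2, and 43 without neutrophilic mouse 25. The highest counts between models came without eosinophilic mouse 8, when mouse 7 and mouse 9 stood for the group and 5979 and 2777 of all genes passed in these comparisons. Without mouse 7, the eosinophilic count of 4 (266 of all genes) fell to 1 when control mouse 1 or 2 was also left out (33 and 37 of all genes). It fell to 2 without control mouse 3 (114 of all genes). Saa3 in the mixed and neutrophilic models was past the threshold in 6 of 6 such fits. Over all genes, 99, 94 and 421 were past the threshold in eosinophilic, mixed and neutrophilic mice against control, 266, 596 and 1889 without mouse 7, 432, 1859 and 3188 without mice 7, 9 and 23, and 0, 1689 and 2124 in fits on only the groups compared. The eosinophilic count was also 237 with dim genes filtered, 14 with arrays centred and 51 after quantile normalisation, which gave 248 in neutrophilic mice. Without eosinophilic mouse 8 it was 8264. Neutrophilic minus mixed called 53 genes without mice 7, 9 and 23, and 0 under the other alternatives run.

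Signs turned only for differences that had not passed. Without mice 7, 9 and 23 these were log2 0.48 for Lbp in eosinophilic minus control, -0.11 for Lcn2, -0.02 for Orm2 and -0.23 for Reg3g in neutrophilic minus eosinophilic, 0.06 for Saa1 in mixed minus eosinophilic, and 0.08 for Orm1 and -0.41 for Saa1 in neutrophilic minus mixed. After quantile normalisation they were -0.10 for Orm2 in eosinophilic minus control and -0.01 for Saa1 in neutrophilic minus mixed. The ranges that follow are from fits without 1 array, alone or together with mouse 7. Eosinophilic minus control moved between -1.41 and 0.58 for Lbp and -1.28 and 3.39 for Lcn2, and mixed minus control between -0.07 and 0.26 for Hp. Neutrophilic minus mixed ranged from -0.13 to 0.28 for Hp, -0.65 to 0.08 for Orm1, -0.40 to 0.06 for Orm2 and -0.41 to 0.63 for Saa1. Mixed minus eosinophilic ranged from -2.19 to 0.06 for Saa1. Neutrophilic minus eosinophilic ranged from -0.12 to 2.10 for Lbp, -0.46 to 4.21 for Lcn2, -0.18 to 2.49 for Reg3g, -2.07 to 0.17 for Saa1 and -1.01 to 0.12 for Saa2. The cause was not tested. Alternatives were run for the 10 members and, for the other lists, only without mouse 7. The number of arrays and the low signal of Saa1 limit these results.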
